A study of Mus musculus with 6 samples.

Results

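The glucocorticoid receptor and 9 genes that glucocorticoids are known to induce were followed through the arrays of resting splenic T cells, 10 genes of the 22180 that could be measured. They are Nr3c1, Tsc22d3, Fkbp5, Ddit4, Sgk1, Klf9, Txnip, Zbtb16, Pik3ip1 and Cdkn1b, and each was read from the probe set that names it alone (the brightest one where a gene has several, although each of these 10 had 1). The study asked how loss of the phosphatase DUSP4 changes T cells, and its arrays set 3 samples of WT mice against 3 of DUSP4-/- mice. All mice were 6 to 8 weeks old, and T cells were enriched from the spleen with magnetic beads (MACS) to a stated purity of 90 to 95%. The study's legend goes from this sorting to RNA extraction and mentions neither a hormone nor a stimulation step. DUSP4-/- mice lack the gene in every cell and not in T cells alone, and both genotypes were on the C57Bl/6 background after repeated crossing. The 3 samples of a genotype carry the numbers 1 to 3, and the study describes its material as pairs of a WT and a DUSP4-/- sample, so differences are also given within each number, called a pair here.

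Glucocorticoids reach the cell interior by diffusion and bind their receptor, encoded by Nr3c1, which a chaperone complex holds ready in the cytoplasm. The bound receptor enters the nucleus and binds DNA elements made of inverted repeats separated by a short spacer, where it raises transcription of a set of genes that curb inflammation, growth signaling and glucose use. In T cells several of these genes are shared with the FOXO factors, which are active in resting cells and shut off by the PI3 kinase and AKT pathway, and adrenal glucocorticoid output follows a daily rhythm and rises with stress.

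Stretches of DNA before the start sites of 4 of the genes are shown because Klf9, Txnip and Ddit4 are the genes on which the comparison between pairs turned, and because Sgk1 was the only one of the 8 genes searched whose stretch held a full receptor element. They come from RefSeq on GRCm38.p6, which held start sites for 8 of the 10 genes, 15 in all. Each runs 5′ to 3′ for the 250 bases before the start. Capitals mark AGAACA and TGTTCT separated by any 3 bases, the full receptor element, in Sgk1, and GTAAACA, a FOXO motif, in Klf9 and Txnip. Ddit4 held neither.
Sgk1, chr10:21993640-21993889, plus strand: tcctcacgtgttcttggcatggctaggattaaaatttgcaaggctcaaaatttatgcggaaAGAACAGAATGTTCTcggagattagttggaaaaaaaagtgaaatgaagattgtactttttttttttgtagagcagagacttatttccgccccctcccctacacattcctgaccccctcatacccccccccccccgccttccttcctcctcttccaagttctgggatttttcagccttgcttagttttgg
Klf9, chr19:23140976-23141225, plus strand: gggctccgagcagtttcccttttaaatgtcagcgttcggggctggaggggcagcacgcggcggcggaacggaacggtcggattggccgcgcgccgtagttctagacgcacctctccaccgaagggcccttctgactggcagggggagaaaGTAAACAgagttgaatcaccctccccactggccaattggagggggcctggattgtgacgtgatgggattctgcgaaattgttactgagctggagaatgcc
Txnip, chr3:96557707-96557956, plus strand: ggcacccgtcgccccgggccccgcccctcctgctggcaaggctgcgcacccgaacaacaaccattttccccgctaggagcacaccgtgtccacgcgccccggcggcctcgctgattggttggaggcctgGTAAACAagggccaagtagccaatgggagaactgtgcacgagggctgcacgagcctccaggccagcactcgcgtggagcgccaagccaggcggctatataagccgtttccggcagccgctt
Ddit4, chr10:59951771-59952020, minus strand: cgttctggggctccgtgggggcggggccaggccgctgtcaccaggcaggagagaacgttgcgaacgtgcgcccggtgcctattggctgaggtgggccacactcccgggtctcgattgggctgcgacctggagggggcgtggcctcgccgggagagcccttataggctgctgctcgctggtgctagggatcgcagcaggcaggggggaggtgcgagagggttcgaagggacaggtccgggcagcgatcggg
The full element of Sgk1 lay 189 to 175 bases before 1 of its 6 start sites. Of 32851 such stretches over all genes, searched on both strands, 3 held it (0.00913%). AGAACA or TGTTCT on its own, which the full element also contains, was in 16.1% of all stretches and in 4 of the 15, those of Sgk1 and Tsc22d3. GTAAACA or its complement TGTTTAC was in 3.17% of all stretches and in those of Klf9 and Txnip, 100 to 94 and 121 to 115 bases before the start. CACGTG, the E-box bound by the clock factors and by MYC, was in 6.02% of all stretches and in those of Fkbp5 and Sgk1, where it overlaps a TGTTCT match. CACCC or GGGTG, bound by KLF proteins, was in 52.0% of all stretches and in 6 of the 15, those of 5 of the genes. The cAMP element, TGACG followed directly by TCA, was in 1.55% of all stretches and in none of the 15. These are matches of letters in a short window and say nothing of binding.

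The values are log2 expression values, on which a difference of 1 is a doubling, and a value can be set against the same gene on another array but not against another gene. Array medians lay between 4.99 and 5.07. The targeted gene Dusp4 read 6.33, 7.61 and 8.13 in WT replicates 1 to 3 and 5.10, 6.18 and 6.78 in DUSP4-/- replicates 1 to 3. It was lower in the DUSP4-/- sample of every pair, by 1.23, 1.44 and 1.35 on the log2 scale, although the genotypes overlapped (limma adjusted p = 0.182 with the pair as a block), and where its probes lie relative to the deleted part was not checked. The CD3 subunit Cd3e stood between 11.49 and 11.78, and Cd8a read 10.32 to 10.79 next to a Cd4 of 10.82 to 11.10, so transcripts of both lineages were present. The legend for these arrays speaks of naïve T cells and points to a protocol that also removes CD8+ cells, whereas the labels say T cells, so which cells were sorted is not settled. The samples numbered 1 stood apart in both genotypes. Xist, transcribed from the inactive X chromosome, read 10.09 and 10.12 in them against 3.58 to 3.87 in the other 4, and the Y-linked gene Eif2s3y read 3.14 and 3.96 against 8.70 to 9.19. The labels give no sex, and any other difference between number 1 and the rest cannot be told apart from this one.

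No difference between WT and DUSP4-/- T cells was called for the 10 genes, which does not show that their levels were equal. The main fit, without a block, did not call even Dusp4 (limma adjusted p = 0.9999). In limma, with p adjusted over all genes, 0 of the 10 differed between genotypes, beside 0% of all genes, and the same held with the pair as a block (0 of 10 and 0%). At an unadjusted p under 0.05 the counts were again 0 of 10 in both fits, against 599 and 1373 of all 22180 genes. The genotypes overlapped for every one of the 10 genes. Of all genes, 7.44% had WT and DUSP4-/- arrays that did not overlap. With a share this low, 0 of 10 is no result about the 10. Nr3c1 alone differed in the same direction in all 3 pairs (1 of 10, against 27.6% of all genes). The mean difference was above 0 for 5 genes and below 0 for 5, with a median of 0.0048 against 0.019 over all genes, and its median size was 0.070 against 0.092. The plot of differences by pair shows the intervals that these 3 pairs leave.

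**Figure D1:**
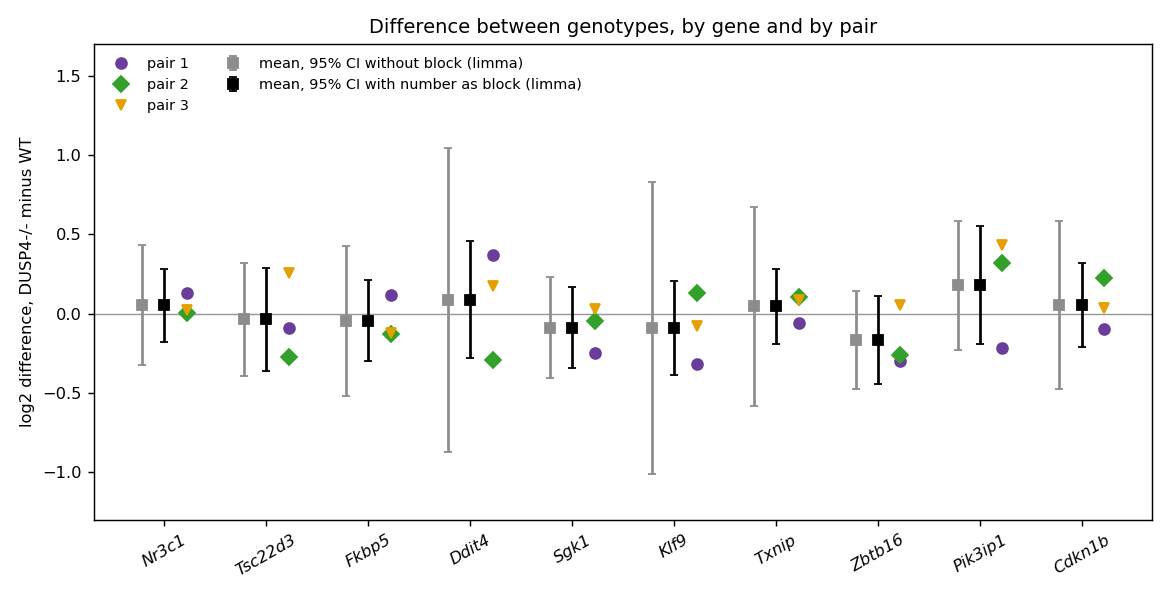
Log2 difference DUSP4-/- minus WT for each of the 10 genes on the y axis, with the 3 pairs as coloured symbols and the mean with its 95% confidence interval from limma without (grey) and with (black) the pair as a block. Every interval spans 0, and the intervals without the block are widest for Ddit4 and Klf9, from 0.547-fold to 2.06-fold and from 0.496-fold to 1.78-fold.

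Nr3c1, the receptor itself, read 8.65, 9.01 and 9.11 in WT replicates 1 to 3 and 8.78, 9.01 and 9.13 in the DUSP4-/- samples of the same numbers. The arrays of a pair lay close together, with differences of 0.13, 0.0049 and 0.025, and both arrays numbered 1 were below the other 4. DUSP4-/- over WT was 1.04-fold (95% confidence interval 0.797 to 1.35, and 0.883 to 1.22 with the block). Fkbp5, a co-chaperone that lowers the receptor's affinity for hormone and thereby closes a feedback loop, read 6.76, 6.69 and 6.30 in WT and 6.88, 6.56 and 6.18 in DUSP4-/- samples. It ran the other way from its receptor, highest in number 1 and lowest in number 3 in both genotypes. The ratio between genotypes was 0.970 (0.699 to 1.35). Tsc22d3, which encodes the leucine zipper protein GILZ that restrains AP-1 and NF-κB, read 7.09, 7.43 and 7.11 in WT and 7.00, 7.16 and 7.37 in DUSP4-/- samples. Here the pairs disagreed in sign, at -0.09, -0.27 and 0.26, and the ratio was 0.975 (0.762 to 1.25).

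Among the members that act on growth signaling, Ddit4, an inhibitor of the kinase complex mTORC1, had the widest spread of the 10. It read 7.02, 5.99 and 6.36 in WT and 7.39, 5.70 and 6.53 in DUSP4-/- samples. Both arrays numbered 1 were the highest and both numbered 2 the lowest, and the 3 pairs differed by 0.37, -0.29 and 0.18. DUSP4-/- over WT was 1.06-fold, with an interval of 0.547 to 2.06 that narrowed to 0.822 to 1.37 with the block. Sgk1, the serum- and glucocorticoid-regulated kinase and a relative of AKT, read 7.60, 7.66 and 7.37 in WT and 7.35, 7.61 and 7.40 in DUSP4-/- samples. Both arrays numbered 2 were the highest, by a small margin over WT replicate 1, and the ratio was 0.941 (0.753 to 1.18). Pik3ip1, a membrane protein that inhibits PI3 kinase, read 8.51, 8.37 and 8.51 in WT and 8.29, 8.70 and 8.95 in DUSP4-/- samples. It had the largest difference between genotypes of the 10, 1.13-fold (0.854 to 1.50), which rested on pairs 2 and 3, at 0.32 and 0.43, with pair 1 at -0.22.

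The transcription factor Klf9, a zinc finger protein of the KLF family, read 6.51, 7.39 and 7.59 in WT and 6.19, 7.52 and 7.51 in DUSP4-/- samples. Both arrays numbered 1 lay well below the other 4, which spanned 7.39 to 7.59. Within pairs the differences were -0.32, 0.13 and -0.08, for a ratio of 0.940 (0.496 to 1.78, and 0.766 to 1.15 with the block). Zbtb16 encodes PLZF, the factor that directs development of innate-like T cells such as NKT cells. It read 6.72, 6.58 and 6.58 in WT and 6.43, 6.32 and 6.64 in DUSP4-/- samples, the narrowest spread of pair means of the 10. It was lower in the DUSP4-/- sample of pairs 1 and 2, by 0.30 and 0.26, and not in pair 3, and the ratio was 0.891 (0.720 to 1.10).

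Txnip, which binds thioredoxin and limits glucose uptake, read 11.02, 11.02 and 11.74 in WT and 10.96, 11.13 and 11.82 in DUSP4-/- samples. Both arrays numbered 3 stood above the other 4, while numbers 1 and 2 lay together. The ratio between genotypes was 1.03 (0.668 to 1.60), and the largest difference within a pair was 0.11. Cdkn1b, the cell cycle inhibitor p27, read 9.15, 9.34 and 9.77 in WT and 9.05, 9.56 and 9.80 in DUSP4-/- samples. Its pairs did not overlap, with pair 1 lowest and pair 3 highest in both genotypes, and the ratio between genotypes was 1.04 (0.719 to 1.50). The plot of levels by array shows all 10 genes on axes of equal span.

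**Figure D2:**
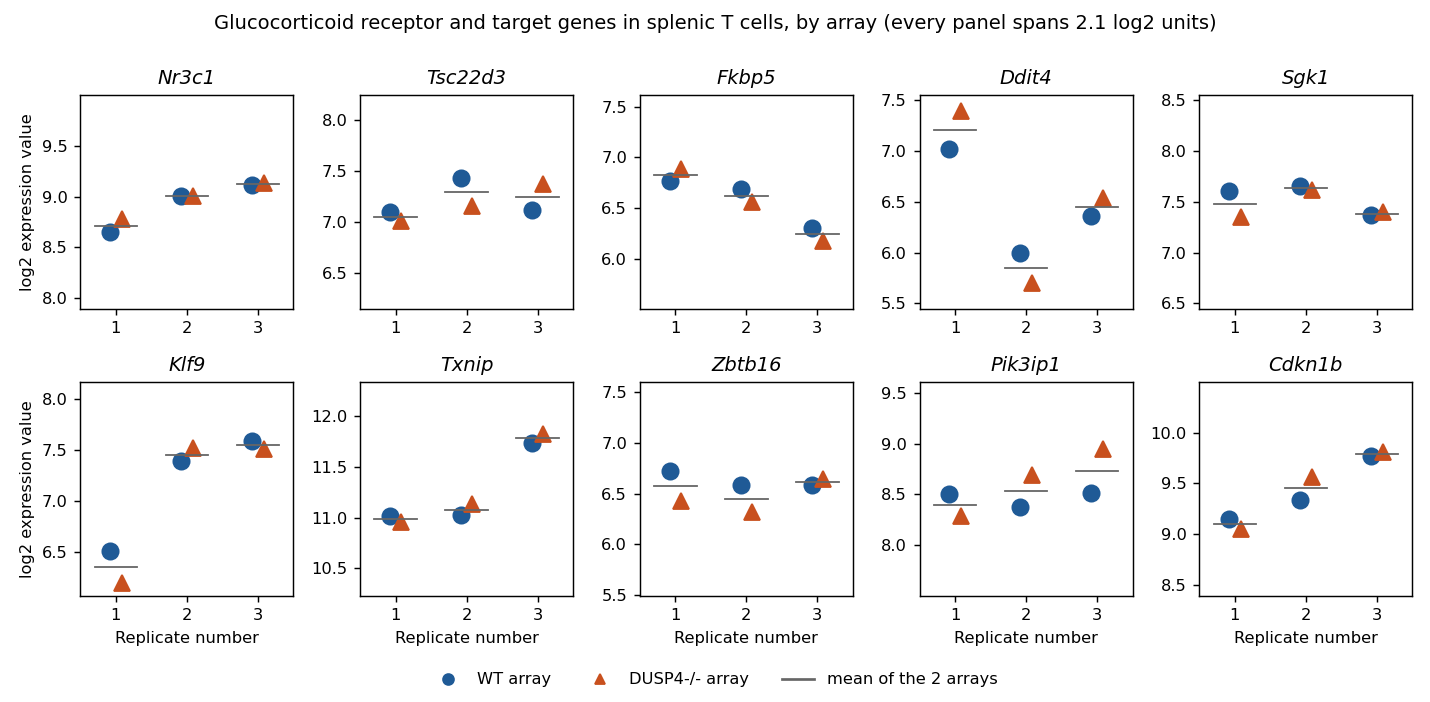
Log2 expression value on the y axis against replicate number for each of the 10 genes, with WT arrays as blue circles, DUSP4-/- arrays as orange triangles and the mean of the 2 as a line. Pair means span 1.20, 0.79 and 1.36 for Klf9, Txnip and Ddit4, against largest differences within a pair of 0.32, 0.11 and 0.37. The genotypes overlap in every panel.

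Spread between pairs was set beside the difference between genotypes. The range of the 3 pair means exceeded the mean difference between genotypes for 9 of the 10 genes, Zbtb16 being the exception. It did so for 18649 of all 22180 genes and for 10271 of the 11425 at or above the median probe set. A range of 3 means of 2 arrays tends to exceed a difference of 2 means of 3 arrays anyway. The count is thus no result about the 10. The median range was 0.49 for the 10 genes, 0.27 for all genes and 0.30 for genes at or above the median probe set. The SD of the pair means exceeded the SD of the differences within pairs in 6 of the 10 (60.0%), against 39.6% of all genes and 54.8% of those at or above the median probe set. The share for the 10 is therefore near that of similarly bright genes.

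**Figure D3:**
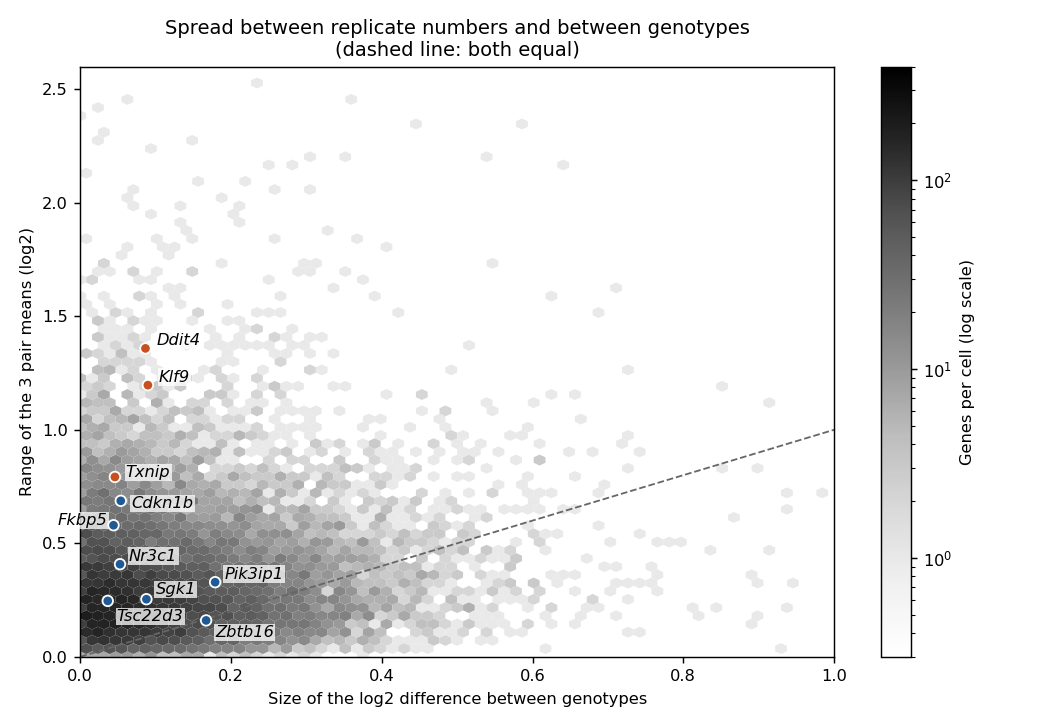
Range of the 3 pair means against the size of the log2 difference between genotypes, for all genes as shaded cells (count on a log scale) and for the 10 genes as points, orange where the test of the replicate number was passed. All of the 10 but Zbtb16 lie above the dashed line of equality, with Ddit4 at 1.36 and Klf9 at 1.20 highest, and 24 of the 22180 genes fall outside the axes.

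Pairs were compared by a moderated F test of the replicate number in limma with genotype as a term. It called 3 of the 10 genes, Klf9 (adjusted p = 0.0375), Ddit4 (0.0494) and Txnip (0.0498), beside 2.45% of all genes. Of the 11425 genes at or above the median probe set, where all of the 10 lie, it called 492. In the contrast of number 2 with number 1, Klf9 was higher by 1.10 (limma adjusted p = 0.0422) and Ddit4 fell by 1.36 (0.0427), 2 of 10 against 1.18% of all genes. In the contrast of number 3 with number 1, Klf9 was higher by 1.20 (limma adjusted p = 0.0179), Txnip by 0.79 (0.0252) and Cdkn1b by 0.69 (0.0420), 3 of 10 against 6.67% of all genes. Among the 11425 brighter genes, 623 were higher and 670 lower in that contrast. Fkbp5 was 0.58 lower in number 3 than in number 1 without passing (limma adjusted p = 0.0551). Number 3 did not differ from number 2 for any of the 10, nor for any other gene (0%), while at an unadjusted p under 0.05 that contrast held 4 of the 10 and 2367 of all genes. For Txnip that contrast was 0.70 (limma adjusted p = 0.337), so the test places its pair 3 above pair 1 but not above pair 2. Both arrays numbered 1 were below the other 4 for 5 of the 10 genes (Nr3c1, Tsc22d3, Klf9, Txnip and Cdkn1b), against 16.1% of all genes, and above them for Fkbp5 and Ddit4, 2 of 10 against 17.7%. Of the 11425 brighter genes, 2355 had both below and 3260 both above. Tsc22d3 and Txnip cleared the nearest array by a small margin only. Each of the 3 calls rested on all 6 arrays. Leaving out any 1 of the 6 arrays ended all of them, with adjusted p in limma from 0.0548 to 0.198 for Klf9, from 0.0562 to 0.205 for Ddit4 and from 0.116 to 0.195 for Txnip, and the number of calls over all genes then fell from 543 to between 4 and 102. A fit to the 4 arrays numbered 2 and 3 alone, chosen after seeing the data, called 0 of the 10 and 0 of all genes between these numbers in limma, with 4 of the 10 and 2431 of all 22180 at an unadjusted p under 0.05.

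Genes with patterns most like those of the 3 members that varied most over the arrays were found by the root mean square distance between mean-centred values over the 6 arrays, among 11424 genes at or above the median probe set. Nearest to Ddit4 were 6330407A03Rik (distance 0.166), H2-DMb2 (0.186), Cd79a (0.195), Atp1b2 (0.211) and H2bc21 (0.219). Cd79a, a chain of the B cell receptor complex, read 8.68, 7.22 and 8.01 in WT and 8.61, 7.33 and 8.11 in DUSP4-/- samples, and H2-DMb2 encodes an MHC class II chaperone chain. Both thus share with Ddit4 the order of pairs 1, 3 and 2 from high to low. Nearest to Klf9 were Riok1 (0.074), Gramd3 (0.075), 1810055G02Rik (0.076), Jmy (0.080) and Klf6 (0.084), all low on both arrays numbered 1. Klf6, another KLF factor, read 10.38, 11.33 and 11.26 in WT and 10.05, 11.32 and 11.37 in DUSP4-/- samples. Nearest to Txnip were Kctd10 (0.060), the autophagy kinase Ulk1 (0.062), Neurl3 (0.094), Csnk1e (0.097) and the decoy receptor Il1r2 (0.099), all high on both arrays numbered 3. Ulk1 read 7.76, 7.83 and 8.48 in WT and 7.74, 7.79 and 8.46 in DUSP4-/- samples.

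**Figure D4:**
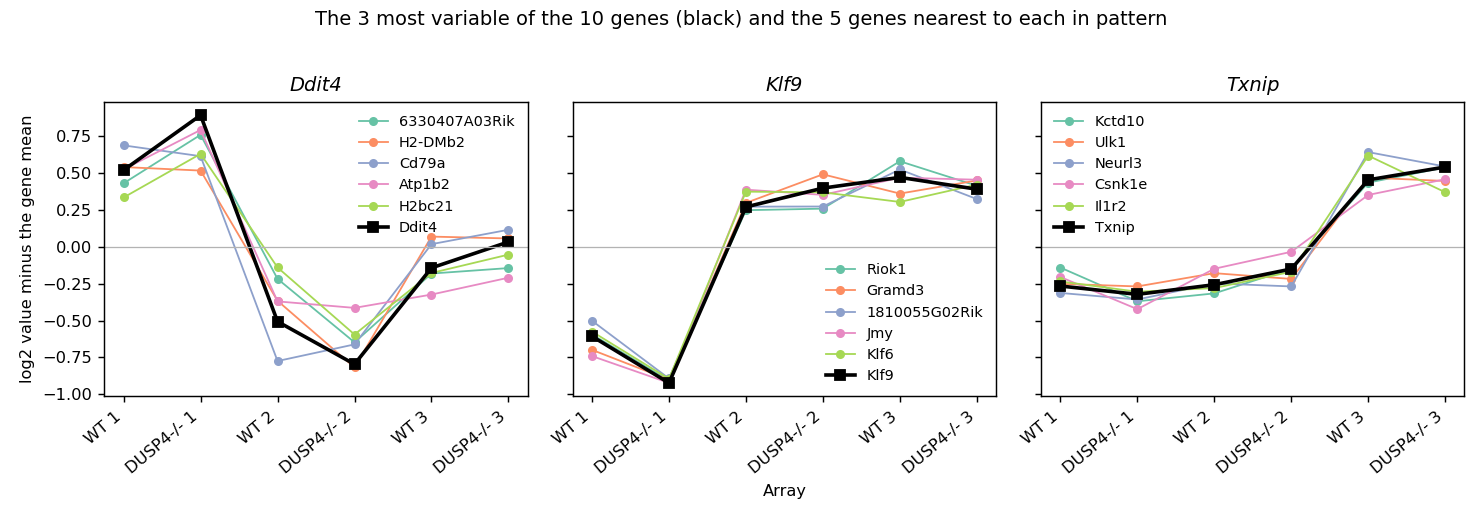
Log2 value minus the gene's mean over the 6 arrays for Ddit4, Klf9 and Txnip (black squares) and the 5 genes nearest to each (coloured circles), with the arrays ordered by replicate number on the x axis. Ddit4 and its neighbours are highest on both arrays numbered 1, Klf9 and its neighbours are lowest there, and Txnip and its neighbours are highest on both arrays numbered 3.

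A further 24 genes known to respond to glucocorticoids were not called between genotypes either, with 0 of 24 in limma with or without the block (1 without and 2 with it at an unadjusted p under 0.05) and a median difference of -0.04 (8 above and 16 below 0). The F test of the replicate number called 9 of the 24, beside the 2.45% of all genes, of which 8 were lowest in number 1 and 1, Il7r, was highest there. Tnfaip3, an inhibitor of NF-κB, read 9.35, 11.70 and 11.66 in WT and 9.15, 11.69 and 11.70 in DUSP4-/- samples (limma adjusted p = 0.0114). The clock gene Per1, a direct receptor target, read 8.48, 10.18 and 10.78 in WT and 8.29, 10.23 and 10.86 in DUSP4-/- samples (limma adjusted p = 0.0117). For both, arrays numbered 1 lay more than 1 log2 unit below every other array while the arrays of a pair differed by 0.20 at most. Mt2, a metallothionein, ran the opposite way, at 8.09, 5.78 and 7.03 in WT and 8.19, 6.34 and 5.89 in DUSP4-/- samples, without passing the test (limma adjusted p = 0.0803). The largest differences between genotypes in this list were those of Pdk4, which restrains glucose oxidation, at 0.45, of Anxa1, an anti-inflammatory phospholipid-binding protein, at -0.34, and of Rhob, a small GTPase, at -0.21. Pdk4 was above its WT partner in every pair, by 0.70, 0.36 and 0.29, with an adjusted p of 0.762 in limma with the block. Its values were dim, 3.34 to 4.16 over the 6 arrays, all below the median probe set of 5.03. In the contrast of number 3 with number 1, 13 of the 24 were higher and 1 lower, against 734 and 745 of all 22180 genes. In that of number 2 with number 1, 6 were higher and 0 lower, against 178 and 84 of all genes.

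**Figure D5:**
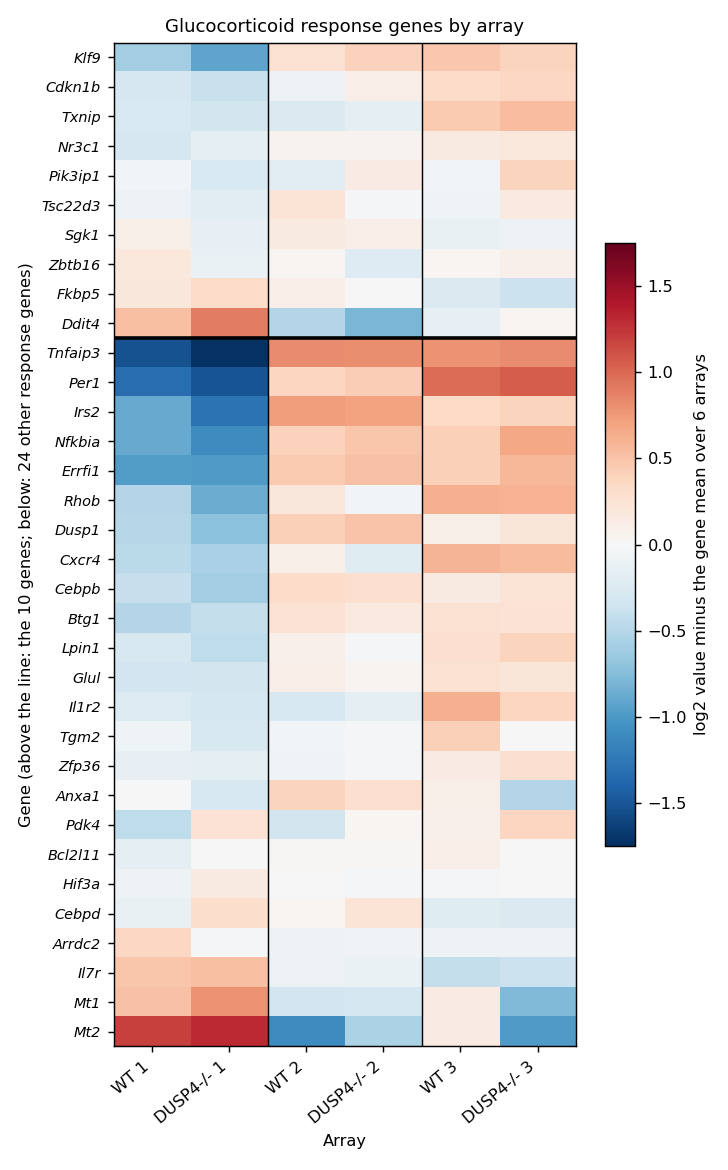
Log2 value minus the gene's mean over the 6 arrays, blue below and red above 0, for the 10 genes (above the line) and 24 other glucocorticoid response genes (below it), with columns grouped by replicate number. Both arrays numbered 1 are below the other 4 for 5 of the 10 and 15 of the 24 genes, and above them for 2 and 4.

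Of 18 measured chaperones, coregulators and steroid enzymes (of 21 listed), 0 were called between genotypes and 0 by the F test of the replicate number in limma. At an unadjusted p under 0.05 the F test held 4 of the 18, against 4966 of all 22180 genes, and the median range of their pair means was 0.21, against 0.27 over all genes. Hsd11b1, which regenerates active glucocorticoid inside cells, read 7.66, 7.01 and 6.81 in WT and 7.54, 7.05 and 6.63 in DUSP4-/- samples. It was 0.88 lower in number 3 than in number 1 (limma adjusted p = 0.0232), the order that Fkbp5 also followed. Ptges3, the p23 co-chaperone, was low on 1 array, at 3.76 in DUSP4-/- replicate 1 against 4.50 to 4.72 on the others.

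Some genes of other programs also passed the F test of the replicate number, which called 2.45% of all genes, and their part in the values of the 10 genes was not tested. Among 15 FOXO factors and targets in T cells (of 16 listed), the F test called 6, of which 5 were lowest in number 1 and Il7r was highest there, and 0 were called between genotypes. Irs2, an adaptor of insulin signaling that is in both the FOXO and the glucocorticoid list, read 7.84, 9.46 and 9.07 in WT and 7.44, 9.44 and 9.11 in DUSP4-/- samples (limma adjusted p = 0.0210). Ccng2, an atypical cyclin, was higher in number 3 than in number 1 by 1.06 and above its WT partner by 0.19, 0.26 and 0.15. Pink1 was the only gene of that list whose genotypes did not overlap, with DUSP4-/- lower by a mean of 0.17. This 1 of 15 is near the 7.44% of all genes without overlap. Among 16 immediate early and heat shock genes, which respond to tissue handling as well as to stimulation, 8 were called, 7 of them lowest in number 1, and 0 between genotypes. Nr4a3, an orphan receptor induced by T cell receptor signals, read 7.79, 9.57 and 10.33 in WT and 7.57, 9.60 and 10.38 in DUSP4-/- samples. Heat shock gene Hspa1a ran the other way, at 10.52, 9.47 and 9.44 in WT and 11.23, 8.54 and 8.68 in DUSP4-/- samples, without passing the test (limma adjusted p = 0.0870). Among 13 circadian clock genes (of 14 listed), 3 were called, all lowest in number 1, and 0 between genotypes. Besides Per1 these were Bhlhe40, at 7.81, 9.14 and 9.86 in WT and 7.38, 9.24 and 9.43 in DUSP4-/- samples, and Nr1d2, at 7.13, 8.59 and 8.65 in WT and 6.88, 8.44 and 8.62 in DUSP4-/- samples. Dbp alone of the 13 had both arrays numbered 1 above the other 4, against 7 genes with both below. It read 7.28, 6.79 and 6.69 in WT and 7.34, 7.18 and 7.18 in DUSP4-/- samples. The F test did not call it (limma adjusted p = 0.281). Dbp also had the list's largest difference between genotypes, at 0.31. It was higher in the DUSP4-/- sample of every pair (limma adjusted p = 0.770 with the block). The hours at which spleens were taken are not given in the labels.

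Cell type markers were set beside these values, since in a bulk sample fewer cells of a type and less RNA per cell cannot be told apart. The 10 measured T cell markers (of 12) moved little, with a summed level of 13.85 to 13.96 on the log2 scale in WT and 13.86 to 14.01 in DUSP4-/- samples, and 1 of them, Cd28, was called by the replicate number. All 9 measured B cell markers (of 10) were above the other 4 arrays on both arrays numbered 1, and 3 were called, Cd79a, Cd79b and Cd22. Of all genes, 2.45% were called and 17.7% lay above on both arrays numbered 1. Both arrays numbered 1 were also above for 5 of the 10 T cell markers (1 below). The same held for 6 of the 12 innate-like T and NK cell markers (0 below). The summed level of the B cell markers was 10.21, 9.16 and 9.60 in WT and 10.28, 9.21 and 9.58 in DUSP4-/- samples, the same order of pairs as Ddit4, and none of them lay below the median probe set on every array. The protocol to which the legend points depletes B cells by B220, and the part of these markers in the values of Ddit4 was not tested. Of 12 markers of innate-like T and NK cells, the cells for which PLZF is known, 1 was called (Cxcr6). Their summed level was 12.05, 11.65 and 11.82 in WT and 12.03, 11.51 and 11.68 in DUSP4-/- samples. The order of pairs that Ddit4 and the B cell markers share was thus also that of this list. Zbtb16 did not follow this summed level, with pair means that spanned 0.16. Of 7 plasma cell markers 2 were called (Jchain and Xbp1), with summed levels of 10.63 to 11.25 in WT and 10.14 to 10.87 in DUSP4-/- samples. Of 12 myeloid markers, 3 of which lay below the median probe set on every array, 0 were called, with summed levels of 10.84 to 11.02 and 10.66 to 10.93. The 2 measured erythroid markers (of 8) were not called and ran from 7.90 to 9.77 and from 6.99 to 10.02. None of the markers in any list was called between genotypes in limma, and at an unadjusted p under 0.05 with the block the counts were 3 of 12 innate-like T and NK cell markers, 3 of 7 plasma cell markers, 2 of 12 myeloid markers and 0 in the other marker lists, against 1373 of all 22180 genes.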

How the data were processed

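RNA of 3 WT and 3 DUSP4-/- splenic T cell samples was hybridized to Affymetrix Mouse Gene 2.0 ST arrays, 1 per sample. The deposited log2 values were made by the authors with RMA in Affymetrix Expression Console (version not given), which subtracts background, quantile-normalizes and summarizes probe sets, and compresses differences of dim genes. The array annotation names 1 gene for 23521 of the 41345 probe sets, several for 1820 and none for 16004, and only the first were used. The build behind it is not given in the sources used here. Differences were fitted with lmFit and eBayes (limma 3.58.1, R 4.3.3) over 23521 probe sets, with Benjamini-Hochberg adjusted p under 0.05 as the threshold. The legend of the study names an ANOVA and states no block, so the main fit had none. Samples of equal number correlated in their deviations from the genotype mean (0.578, 0.308 and 0.425, against -0.436 to 0.103 for unequal numbers, over genes, which are not independent), and the legend speaks of pairs, so the number was also used as a block. Nothing says whether a sample is 1 mouse, so p-values measure only the spread between these samples. Exact permutation of 3 against 3 arrays cannot go below p = 0.1 and was not used, since no member's groups were separate.

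The 10 genes, the other lists and the motifs were chosen with earlier results of these data known. Outside the 10 genes, the text names Dusp4 and Xist, the nearest 5 genes in pattern, and the members of each list with the widest range of pair means or largest difference between genotypes. Cd3e, Il7r and Cd79b were named after their values were seen. List genes without a probe set of their own were not analysed here. Alternatives were leaving out each array, quantile normalization again, subtraction of array medians, array weights, an intensity trend with robust eBayes, the mean over probe sets, probe sets at or above the median only, a gene-by-gene ANOVA, a threshold of 0.1 and no genotype term. The fits to samples numbered 2 and 3 alone and the contrasts between numbers were chosen after seeing the data. The fits were tested on simulated data. Figures were drawn with Python 3.11.15 and matplotlib 3.10.9.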

Additional observations from a re-analysis of the deposited data

How the results depend on the processing

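With 3 arrays per genotype, the precision of every value is limited by their number. With a replicate block, which pairs samples of the same number, 0 of the 10 genes and 0 of all genes were called between genotypes, as without it, and no call changed. Over all 16 alternatives 0 of the 10 were called. Over all genes 0 were called, except 1 in the fit without WT replicate 1 (range 0 to 1 over single arrays left out) and 1 in the samples numbered 2 and 3 alone. Where an array was left out, the lone array of its number was assumed to vary like the others. The median of the 10 differences then ran from -0.086 to 0.10. Sgk1, Zbtb16 and Pik3ip1 kept their direction under all 13 alternatives, while the other 7 changed sign when single arrays were left out, from -0.083 to 0.15 for Nr3c1, -0.13 to 0.073 for Tsc22d3, -0.21 to 0.14 for Fkbp5, -0.34 to 0.51 for Ddit4, -0.42 to 0.35 for Klf9, -0.21 to 0.28 for Txnip and -0.11 to 0.26 for Cdkn1b. Ddit4 also reversed with array weights (-0.063) and in the samples numbered 2 and 3 alone (-0.057), as did Klf9 in the latter (0.024). The genes called by the replicate number, 543 in all and 3 of the 10, were 4 to 102 and 0 to 0 with an array left out, 280 and 1 with array weights, 3922 and 6 with an intensity trend and robust eBayes, and 2965 and 6 among probe sets at or above the median. With quantile normalization again they were 522 and 2, the latter without Ddit4 (limma adjusted p = 0.0599). With array medians subtracted they were 593 and 2, the latter without Txnip (limma adjusted p = 0.0529). Over all genes the calls were 1833 at a threshold of 0.1 and 1075 with no genotype term, and with the mean over probe sets 1 of the 10 remained called, Klf9. In the samples numbered 2 and 3 alone both counts were 0. Klf9 was also the one called with array weights, and the trend fit added Nr3c1, Fkbp5 and Cdkn1b to the 3. Fewer arrays entered the first of these fits and fewer genes the one above the median, and a threshold of 0.1 admits more genes by itself. Each of the 10 had 1 probe set, so the mean over probe sets left their values unchanged. The adjusted p of Ddit4 and Txnip in limma then moved to 0.0507. The cause of the other shifts was not tested.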
